A study of Mus musculus with 18 samples.

Results

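The RNA that came down with an antibody to the motor protein Kif5A was compared with the RNA that came down with control rabbit IgG, in axoplasm from the dorsal roots of mice. The comparison takes 6 of the 18 libraries of the series, 3 Kif5A and 3 IgG precipitates, chosen by the tissue and antibody in their labels, and the 3 dorsal root inputs (lysate that was not precipitated) serve to place the levels. The table of this tissue lists 20924 named transcripts of 14779 genes, and all of them were kept, among them 4046 transcripts that the table of the other tissue, sciatic nerve, does not list. For 2082 genes, no transcript stands in the sciatic nerve table. All groups came from C57B6 mice, for which the labels give no genotype, age or treatment. Axoplasm of 5 animals was pooled for each of 3 biological repeats, so a library stands for a pool and not for an animal. About 200 ug of lysate was held for 3 h with 10 ug of a rabbit polyclonal antibody to Kif5A, or of rabbit IgG, and protein G beads blocked with salmon sperm DNA. The question of the comparison is which transcripts are found with Kif5A above what IgG and beads bring down by themselves. The same antibody was not tried on tissue without Kif5A in the samples described here.

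Kif5A is one of the heavy chains of kinesin-1, a motor made of a pair of heavy chains and a pair of light chains that walks along microtubules towards the plus end, which in an axon points away from the cell body. Kinesin-1 carries vesicles and mitochondria, binds cargo through its light chains or through adaptors such as the JIP, Trak and Fez proteins, and has been isolated with large RNA granules from brain. Dorsal roots hold the central branches of sensory neurons, the Schwann cells that ensheathe them, fibroblasts, blood vessels and immune cells, and near the spinal cord also oligodendrocytes and astrocytes.

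**Figure D1:**
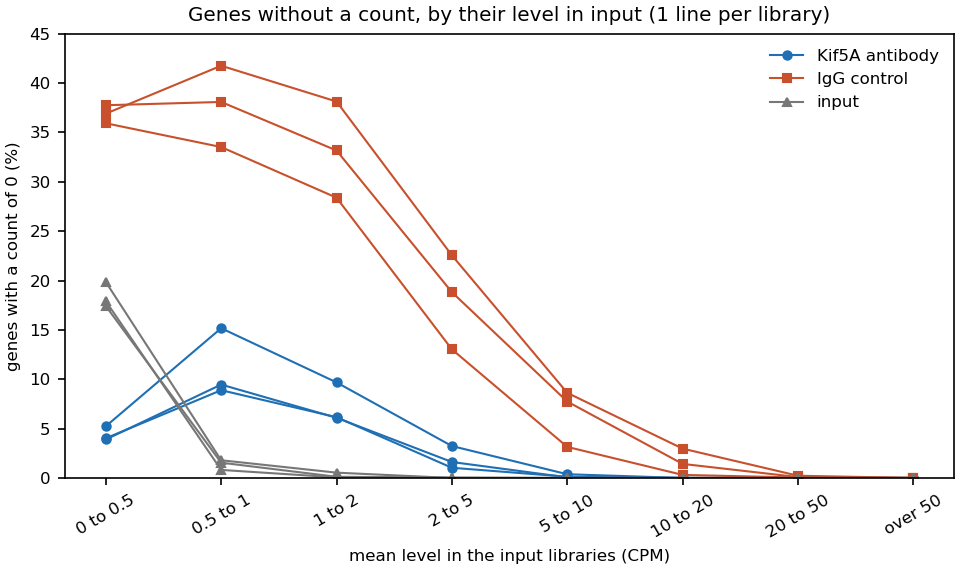
Percent of genes with a count of 0 in each library (y axis), by the gene's mean level in the dorsal root inputs (x axis, CPM bins), with a line for each of the 3 Kif5A, 3 IgG and 3 input libraries. Among genes at 2 to 5 CPM in input, 13.0 to 22.6% were at 0 in an IgG library and 1.03 to 3.23% in a Kif5A library.

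Named rows summed to between 14731865 and 18705668 counts in the Kif5A libraries and between 11584418 and 18314126 in the IgG libraries, so depth overlapped between the groups. The IgG libraries held fewer genes all the same. Of the 14779 genes, 14.5, 12.8 and 10.3% were at 0 in IgG replicates 1, 2 and 3, against 1.94, 3.17 and 1.83% in Kif5A replicates 1, 2 and 3 and 1.07, 1.12 and 1.31% in input. 547 genes were at 0 in all 3 IgG libraries, 30 in all 3 Kif5A libraries and 29 in all 3 inputs, and 255 of the 547 had a count in every Kif5A and every input library. The IgG zeros were spread over genes of low and middling level, as the plot of zeros by input level shows: at 0.5 to 1 CPM in input, 33.5 to 41.8% of 1226 genes were at 0 in an IgG library and 8.89 to 15.2% in a Kif5A library, and above 50 CPM none of 3405 genes was at 0 in any of them. The IgG libraries also differed more among themselves. The median over genes of the standard deviation of log2 levels within a group was 0.84 for IgG, 0.44 for Kif5A and 0.30 for input. How the yield of RNA from the beads bears on these zeros was not tested.

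Against that spread, no single gene passed the test. Of 13124 genes with enough counts, 0 were higher and 0 lower with Kif5A at an adjusted p under 0.05 (0.0% each, edgeR's quasi-likelihood test with Benjamini-Hochberg adjustment), and the smallest adjusted p was 0.272. At an unadjusted p under 0.05, 517 genes (3.94%) were higher and 254 (1.94%) lower. In 1045 genes (7.96%) every Kif5A library lay above every IgG library, and in 715 (5.45%) below. DESeq2 called 283 genes at the same threshold, 216 of them higher and 67 lower, and 163 of the 216 had a 0 in an IgG library. limma-voom called 0. Of the 517 genes higher at an unadjusted p under 0.05, 55.3% lacked counts in 1 or more IgG libraries, as did 16.0% of all genes tested. A gene without counts in IgG can hardly be lower with Kif5A, so these shares describe the higher genes and do not weigh them against the lower ones. For a single gene an exact permutation test of 3 against 3 libraries cannot give a two-sided p under 0.1.

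The authors' deposited table, which tests transcripts, stands apart from these counts. It lists 1269 named transcripts (6.06%) as higher with Kif5A and 115 (0.55%) as lower at a false discovery rate under 0.05. Of the 1269 transcripts in the authors' deposited table, 1140 (89.8%) have a 0 in an IgG library and 737 are at 0 in all 3. Of the 115 lower ones, 28 have a 0 in a Kif5A library and 6 are at 0 in all 3. The filter used here kept 676 of these 1384 transcripts, and 627 of them had an unadjusted p under 0.05 here.

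Among the genes of the motor itself, none stood apart between the antibodies. Levels are given as CPM, counts scaled to a common number of named counts and by TMM factors, for replicates 1, 2 and 3 in that order. Gene positions come from GENCODE M21 (mouse build GRCm38). The mRNA of Kif5a (chromosome 10, 127225696 to 127263348), whose protein the antibody binds, was at 123, 177 and 106 CPM in the Kif5A libraries and 67.6, 20.0 and 144 CPM in the IgG libraries, with 57.4 ± 3.39 CPM (SD, n = 3) in input. IgG replicate 3 lay above 2 of the 3 Kif5A libraries, and the log2 ratio of 0.86 (SE 0.64) did not pass the test. Kif5b (chromosome 18, 6201002 to 6242174), the heavy chain found in most cell types, was at 785, 649 and 596 CPM with Kif5A and 636, 604 and 869.5 CPM with IgG, a log2 ratio of 0.0047 (SE 0.25). Kif5c (chromosome 2, 49619298 to 49774778), the other neuronal heavy chain, stood at 132, 178 and 68.6 against 37.9, 93.0 and 138 CPM, and its groups overlapped. The light chain Klc1 (chromosome 12, 111758849 to 111807844) was at 26.3, 29.9 and 20.1 CPM with Kif5A and 50.5, 15.5 and 10.9 CPM with IgG. Klc4 (chromosome 17, 46630624 to 46646022) was at 55.5, 38.8 and 41.0 against 127, 21.5 and 43.8 CPM, and in both light chains IgG replicate 1 alone was the highest library.

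Over the kinesin-1 chains and adaptors, 13 of 19 genes tested lay above IgG (a positive log2 ratio), and the median was 0.10, beside 49.4% and a median of -0.0088 over all genes. Leaving out IgG replicate 2 turned that median to -0.059. Mapk8ip2 (chromosome 15, 89453913 to 89464468), which encodes the scaffold JIP2, was at 41.4, 41.5 and 27.5 CPM with Kif5A and 12.3, 5.37 and 14.8 CPM with IgG, without overlap of the groups (log2 ratio 1.82, SE 0.56, adjusted p = 0.505). Fez1 (chromosome 9, 36821864 to 36878924), a kinesin-1 adaptor of axons, was at 60.2, 59.7 and 92.7 against 51.0, 37.4 and 48.5 CPM. Trak1 (chromosome 9, 121297502 to 121474918), which links mitochondria to the motor, was at 70.5, 58.0 and 59.3 against 53.5, 141 and 102 CPM, and its groups overlapped.

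Other motors gave no common direction. Of the other kinesins, 6 of 18 were positive, and the median log2 ratio was -0.37. Kif3a (chromosome 11, 53567379 to 53601967), a subunit of kinesin-2, was at 81.3, 51.9 and 55.0 CPM with Kif5A and 212, 88.9 and 68.2 CPM with IgG. Gene values are sums over the listed transcripts, which can differ in direction and need not be all forms of a gene. In the authors' deposited table the Kif3a transcripts had log2 ratios of 6.38 (false discovery rate 0.00259), -0.85 and -0.72. Kif4 (chromosome X, 100625737 to 100727214), a motor of chromosomes, was at 3.11, 2.04 and 2.57 against 0, 0.0778 and 0.950 CPM, and Kif19a (chromosome 11, 114765388 to 114790739) at 20.6, 6.11 and 19.1 against 2.89, 2.80 and 12.8 CPM. For dynein and dynactin, the motor that runs the other way along microtubules, 13 of 24 were positive, and their median was 0.040. Dync1h1 (chromosome 12, 110601452 to 110666945), the dynein heavy chain, was lower in every Kif5A library, at 143, 155 and 147 against 214, 394 and 214 CPM (log2 ratio -0.82, SE 0.31, adjusted p = 0.759). The dynein adaptor Hook3 (chromosome 8, 26021421 to 26119224) stood at 229, 186 and 143 against 286, 265 and 282 CPM. Bicd2 (chromosome 13, 49341585 to 49387026), an adaptor that joins dynein to dynactin, was at 6.44, 4.60 and 3.38 CPM with Kif5A and at 0 in all 3 IgG libraries, which makes it at least 71.2-fold higher, a bound set against 3 counts over the IgG group. Input held 1.81 ± 0.338 CPM of Bicd2 (SD, n = 3). Such bounds, and the 95% intervals given for ratios against 1 to 3 IgG counts, take in counting error alone, because reads copied by PCR and not marked by molecular identifiers are not separate molecules.

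The mRNAs of Ncl, Kpnb1 and Mtor, which are translated in sensory axons, were followed by name, and none differed beyond the spread between libraries after adjustment. Ncl (chromosome 1, 86344719 to 86359400), which encodes nucleolin, an RNA-binding protein that has been tied to kinesin-1 and to axonal mRNA, was at 368, 439 and 361 CPM with Kif5A and 1041, 725 and 437 CPM with IgG. IgG replicate 3 lay within the range of the Kif5A libraries, and the log2 ratio was -0.86 (SE 0.33, adjusted p = 0.793). Kpnb1 (chromosome 11, 97159714 to 97187881), the nuclear import receptor importin beta, was at 249, 209 and 249 against 246, 197 and 325 CPM. Mtor (chromosome 4, 148448611 to 148557683), the growth-control kinase, was at 25.2, 50.8 and 42.8 against 23.0, 50.5 and 29.0 CPM. The log2 ratios of Kpnb1 and Mtor were -0.059 (SE 0.28) and 0.27 (SE 0.48).

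**Figure D2:**
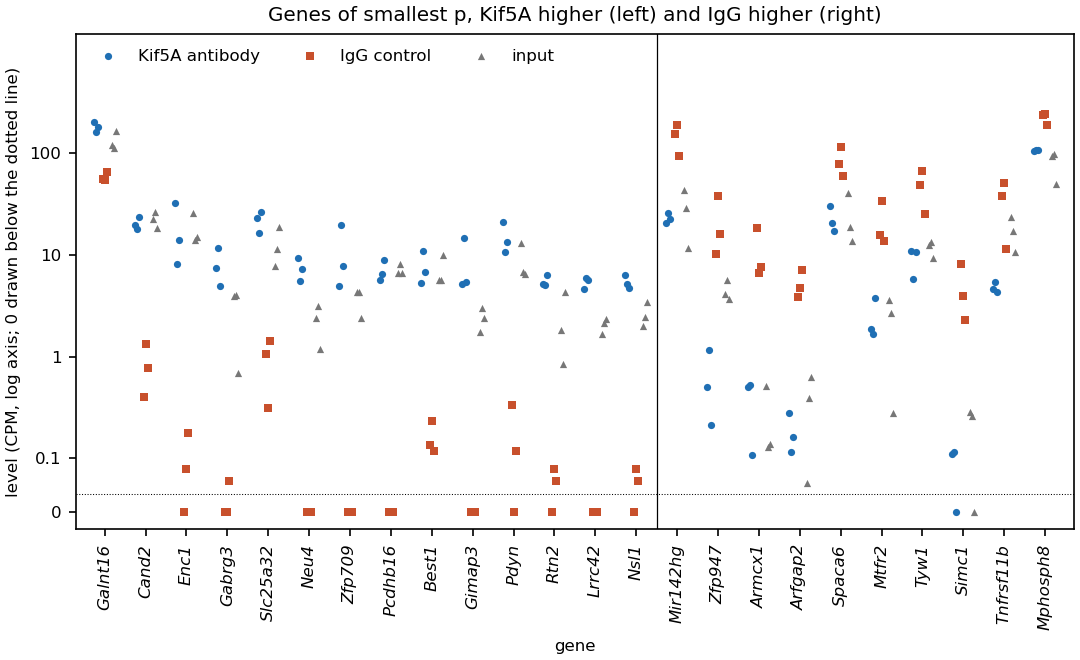
Levels (y axis, CPM, log scale with 0 drawn below the dotted line) of the 14 genes higher and 10 lower with Kif5A by the smallest p in each of the 3 Kif5A, 3 IgG and 3 input libraries, 1 point a library. For Galnt16 the Kif5A libraries sit between 163 and 203 CPM and the IgG libraries between 54.2 and 66.2 CPM, and for Mir142hg the Kif5A libraries sit between 20.6 and 25.9 CPM and the IgG libraries between 94.0 and 189 CPM.

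The genes higher with Kif5A by the smallest p were mostly genes near absence in the IgG libraries. All 14 of them had an adjusted p of 0.272 with edgeR, and DESeq2 called all 14 from the same counts. The exception to low IgG levels was Galnt16 (chromosome 12, 80518277 to 80630972), which encodes an enzyme that starts O-linked sugar chains in the Golgi. Galnt16 was at 203, 163 and 181 CPM with Kif5A, 56.1, 54.2 and 66.2 CPM with IgG, beside 133 ± 27.5 CPM (SD, n = 3) in input. Its log2 ratio was 1.69 (SE 0.27, unadjusted p = 0.000285), the only one of the 14 with more than 50 CPM in each IgG library. DESeq2 gave Galnt16 an adjusted p of 2.47e-07, and its transcript had a false discovery rate of 3.70e-05 in the authors' deposited table. Cand2 (chromosome 6, 115774538 to 115805557), a regulator of cullin ubiquitin ligases, was at 19.5, 17.9 and 23.8 CPM with Kif5A and 0.403, 1.32 and 0.772 CPM with IgG (log2 ratio 4.67, SE 0.79). Its level in input, 22.3 ± 3.91 CPM, was close to that with Kif5A. Slc25a32 (chromosome 15, 39091231 to 39112716), a mitochondrial carrier of folate, was at 23.4, 16.3 and 26.3 CPM with Kif5A, 1.07, 0.311 and 1.43 CPM with IgG, beside 12.8 ± 5.61 CPM in input (log2 ratio 4.60, SE 0.83). Enc1 (chromosome 13, 97241105 to 97253034), an actin-binding protein of the nervous system that also serves cullin 3, was at 32.7, 8.20 and 14.04 CPM with Kif5A and 0, 0.0778 and 0.178 CPM with IgG.

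Another 4 of the 14 encode a receptor subunit, a peptide precursor, an adhesion molecule and a reticulon. Gabrg3 (chromosome 7, 56716465 to 57387188), a subunit of the GABA-A receptor, was at 7.43, 11.7 and 4.93 CPM with Kif5A and had 1 count in the IgG libraries together, a ratio of 353 (95% interval 63.1 to 13994). Pdyn (chromosome 2, 129686565 to 129699844), the precursor of dynorphin peptides, was at 21.2, 10.6 and 13.5 CPM with Kif5A and 0.336, 0 and 0.119 CPM with IgG. Pcdhb16 (chromosome 18, 37477814 to 37483038), an adhesion molecule of the clustered protocadherins, was at 5.71, 6.52 and 8.89 CPM with Kif5A and at 0 in all 3 IgG libraries, at least 105-fold. Input held Pcdhb16 at 7.11 ± 0.901 CPM, as high as the Kif5A libraries. Rtn2 (chromosome 7, 19282624 to 19296160), a reticulon that shapes the endoplasmic reticulum, was at 5.22, 5.12 and 6.38 CPM with Kif5A, a ratio of 125 (95% interval 34.2 to 1033) over the 2 IgG counts. That none of these 4 genes overlapped between the groups was a condition of their choice. Of all genes tested, 7.96% met that condition in this direction.

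The other 6 of the 14 were also scarce with IgG. Neu4 (chromosome 1, 94020451 to 94028334), a sialidase, was at 9.27, 5.59 and 7.34 CPM with Kif5A and Gimap3 (chromosome 6, 48764464 to 48770851), a GTPase of lymphocytes, at 5.16, 14.8 and 5.46 CPM. Both were at 0 in all 3 IgG libraries, at least 110.4-fold and 124-fold lower than with Kif5A. Zfp709 (chromosome 8, 71882019 to 71895727), a zinc finger protein, was at 4.99, 19.6 and 7.88 CPM with Kif5A and at 0 with IgG, at least 158-fold higher. Lrrc42 (chromosome 4, 107233514 to 107253532) was at 4.66, 5.88 and 5.63 CPM and at 0 with IgG, at least 80.0-fold higher. Nsl1 (chromosome 1, 191063012 to 191086474), a protein of the kinetochore, was at 6.38, 5.24 and 4.77 CPM with Kif5A, a ratio of 122 (95% interval 33.4 to 1009.5) over the 2 IgG counts. Best1 (chromosome 19, 9985174 to 10001633), a chloride channel, was at 5.27, 10.9 and 6.86 CPM with Kif5A and 0.134, 0.233 and 0.119 CPM with IgG (log2 ratio 5.57, SE 1.05). In single input libraries these 6 genes lay between 1.18 and 9.92 CPM. The choice by no overlap and smallest p fixed their direction.

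The genes lower with Kif5A had counts in both groups more often. Mir142hg (chromosome 11, 87755577 to 87757270), the host RNA of miR-142, a microRNA of blood cells, had the smallest p of all named genes. It was at 20.6, 25.9 and 22.8 CPM with Kif5A, 155, 189 and 94.0 CPM with IgG, beside 28.1 ± 16.1 CPM (SD, n = 3) in input, with a log2 ratio of -2.59 (SE 0.37, unadjusted p = 0.000111, adjusted p = 0.272). The Kif5A libraries thus lay at the level of input and the IgG libraries above both. The same order held for Spaca6 (chromosome 17, 17827158 to 17843009), a membrane protein of sperm, at 30.1, 20.7 and 17.1 CPM with Kif5A, 79.1, 116 and 59.2 with IgG and 24.4 ± 14.1 in input. Tyw1 (chromosome 5, 130255619 to 130341563), an enzyme of tRNA modification, was at 10.9, 5.76 and 10.8 CPM with Kif5A, 48.7, 67.0 and 25.2 with IgG and 11.8 ± 2.09 in input. Mphosph8 (chromosome 14, 56668248 to 56697430), a chromatin protein of the silencing complex HUSH, was nearly equal in the Kif5A libraries, at 106, 107 and 108 CPM, and at 239, 245 and 188 CPM with IgG (log2 ratio -1.003, SE 0.25, adjusted p = 0.280). Its input level was 80.6 ± 26.5 CPM.

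The other lower genes were scarce with Kif5A. Zfp947 (chromosome 17, 22144359 to 22166190) was at 0.499, 1.16 and 0.214 CPM with Kif5A and 10.3, 37.9 and 16.0 CPM with IgG. Armcx1 (chromosome X, 134717963 to 134721917), a protein of the outer mitochondrial membrane that bears on mitochondrial transport in axons, was at 0.499, 0.524 and 0.107 against 18.5, 6.61 and 7.60 CPM, and Arfgap2 (chromosome 2, 91264974 to 91276931), a regulator of Golgi transport, at 0.277, 0.116 and 0.161 against 3.83, 4.74 and 7.07 CPM. In these 3 genes the input, at 4.48 ± 1.05, 0.263 ± 0.222 and 0.358 ± 0.285 CPM, lay under every IgG library. Mtfr2 (chromosome 10, 20347770 to 20361304) was at 1.89, 1.69 and 3.75 against 15.8, 34.2 and 13.8 CPM and Simc1 (chromosome 13, 54503779 to 54551290) at 0.111, 0.116 and 0 against 8.12, 3.97 and 2.32 CPM. Tnfrsf11b (chromosome 15, 54250619 to 54278484), the decoy receptor osteoprotegerin, was at 4.61, 5.47 and 4.34 CPM with Kif5A, 37.8, 50.5 and 11.5 with IgG and 17.2 ± 6.28 in input. The log2 ratios of these 6 genes ranged from -5.80 to -2.73, with adjusted p of 0.272 to 0.280 by edgeR. DESeq2 called all 10 lower genes from the same counts, Mir142hg at an adjusted p of 4.20e-08 and Mphosph8 at 0.00754.

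**Figure D3:**
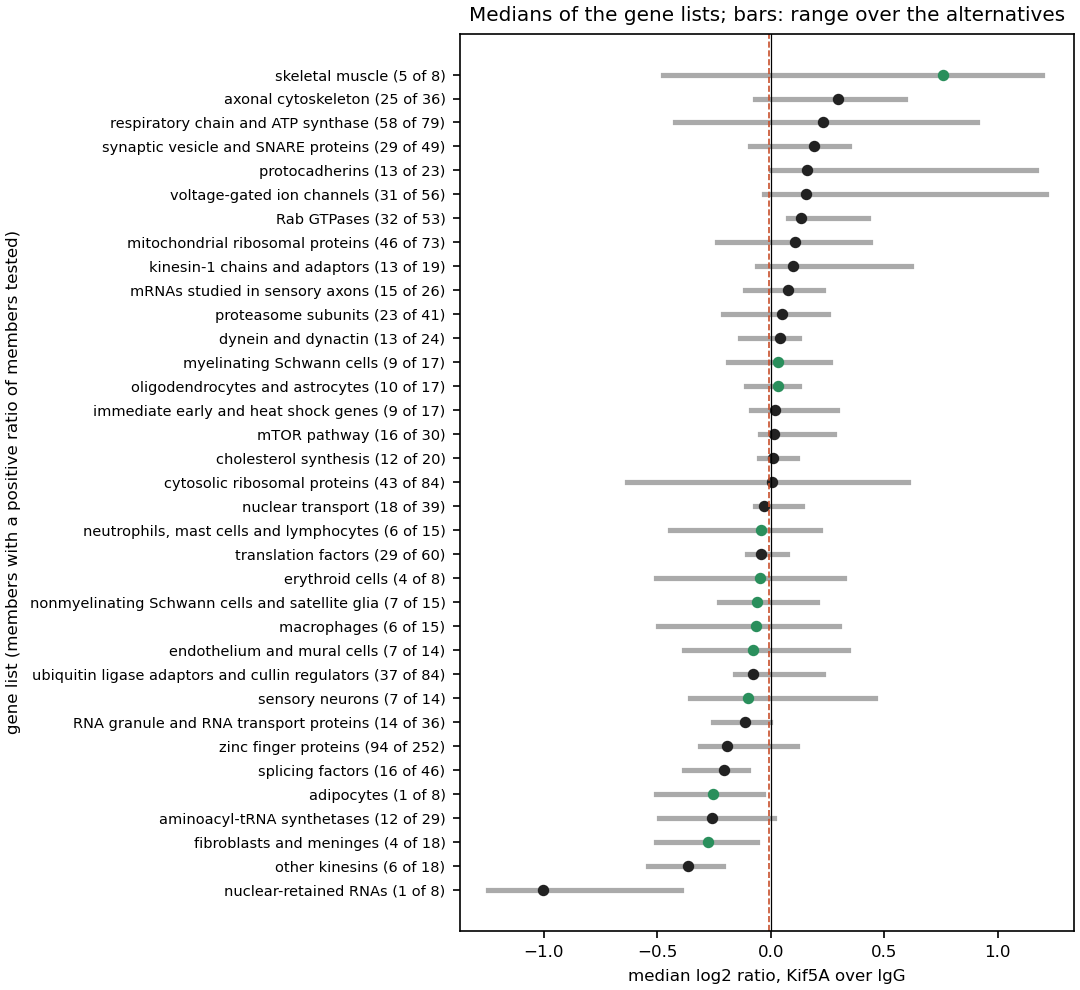
Median log2 ratio of Kif5A over IgG (x axis) of each of the 35 gene lists (y axis), over the genes tested, with the range of the median over the 16 alternative settings as a grey bar, cell type lists in green, other lists in black and the median of all genes as a dashed line. In 8 of the 35 lists the median keeps its sign in all 16.

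Lists of related genes were then described by how many members lay above IgG and by their median, beside 49.4% and -0.0088 over all genes. No member of any of the 35 lists passed the test. The counts are over members that passed the filter on low counts, which keeps a gene seen in 1 group only, and they describe the lists without supporting a direction. The median kept its sign in every one of 16 alternative settings in 8 of the 35 lists, and with another scaling of the libraries alone it changed sign in 9, as the plot of list medians shows. The 8 were fibroblasts and meninges, adipocytes, other kinesins, RNA granule proteins, splicing factors and nuclear-retained RNAs, all with negative medians, and Rab GTPases and protocadherins, with positive ones. Protocadherins came to 0.00045 with a stricter filter and RNA granule proteins to -0.0055 with the replicate number as a block, both next to 0. Leaving out libraries moved all 8 medians by more than 1.5 times, for example to -0.062 and -0.51 for fibroblasts and meninges, -0.034 and -0.50 for adipocytes, -0.21 and -0.54 for other kinesins and 0.11 and 0.28 for Rab GTPases. In lysate of a whole root, fewer cells of a type and less RNA per cell cannot be told apart.

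Markers of the cell types in the root showed the tissue's makeup, and no marker passed the test. In input, markers of myelinating Schwann cells summed to 27772 to 37101 CPM and those of sensory neurons to 2933 to 3924 CPM, so the lysate held RNA of glia and of other cells besides axons. Of the sensory neuron markers, 7 of 14 tested were positive, and the median log2 ratio was -0.10. That median was not stable: it was positive in 11 of the 16 alternative settings, up to 0.46 over transcripts shared with sciatic nerve, and was 0.45 with the replicate number as a block and 0.38 without Kif5A replicate 2. Their sum was 1342, 1471 and 2894 CPM with Kif5A and 1117, 1168 and 2332 CPM with IgG, where replicate 3 was the highest in both groups. Ntrk2 (chromosome 13, 58806569 to 59133970), the receptor of BDNF, which glia also express, was at 375, 302 and 213 CPM with Kif5A and 138, 164 and 126 CPM with IgG, without overlap (log2 ratio 1.12, SE 0.29, adjusted p = 0.321). Calca (chromosome 7, 114631478 to 114636357), the precursor of the peptide CGRP, was at 12.9, 27.7 and 14.9 against 19.8, 34.4 and 30.8 CPM, and its groups overlapped.

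Of the myelinating Schwann cell markers, 9 of 17 were positive (median 0.034). The myelin gene Mag (chromosome 7, 30899176 to 30914873) was at 448, 410.4 and 499 CPM with Kif5A and 1286, 799.8 and 398 CPM with IgG, Mbp (chromosome 18, 82475146 to 82585637) at 182, 83.0 and 68.4 against 106, 62.1 and 42.6 CPM and Prx (chromosome 7, 27499324 to 27520214) at 54.7, 70.5 and 31.1 against 142, 60.4 and 43.4 CPM. All 3 overlapped between the groups. The Mbp values are those of its listed transcripts and not of the whole mRNA. The markers of nonmyelinating Schwann cells and satellite glia had 7 of 15 positive (median -0.061), and Gfap (chromosome 11, 102887336 to 102900912), an intermediate filament of glia, was at 486, 568 and 602 against 899, 913 and 629.7 CPM without overlap. Of that list, Cdh19 (chromosome 1, 110888326 to 110977584) was at 167, 217 and 55.7 against 360.2, 242 and 149 CPM and Ngfr (chromosome 11, 95568818 to 95587735) at 10.3, 16.9 and 26.0 against 9.06, 3.81 and 16.6 CPM. Oligodendrocyte and astrocyte markers had 10 of 17 positive (median 0.034). Gjc3 (chromosome 5, 137953461 to 137963098), a connexin of myelinating cells, was at 609, 535 and 438 against 299.9, 384 and 423 CPM, and Mobp (chromosome 9, 120149707 to 120181484), a myelin protein of oligodendrocytes, at 1009, 1395 and 1593 against 738, 1101 and 1082 CPM, so RNA of central myelin was in the lysate too. Agt (chromosome 8, 124556534 to 124569706), which astrocytes express, was at 68.2, 63.7 and 80.2 against 127, 185 and 71.3 CPM.

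Fibroblast and meningeal markers lay mostly below IgG, with 4 of 18 positive and a median of -0.28. Their sum was 5183, 6469.9 and 7327 CPM with Kif5A and 8947, 9506 and 7297 CPM with IgG, which overlapped by Kif5A replicate 3. Col3a1 (chromosome 1, 45311538 to 45349706), a collagen, was at 655, 1187 and 1229 against 1616, 1906 and 1293 CPM, and Igf2 (chromosome 7, 142650766 to 142666816), a growth factor of the meninges, at 57.1, 113 and 39.8 against 199.6, 219 and 79.6 CPM. The barrier protein gene Cldn1 (chromosome 16, 26356642 to 26371841) lay the other way, at 366, 271 and 135 against 96.4, 171 and 108 CPM. Adipocyte markers had 1 of 8 positive (median -0.26), with Fabp4 (chromosome 3, 10204088 to 10208576), a fatty acid carrier, at 21.1, 29.7 and 31.7 against 41.5, 34.5 and 40.7 CPM. Cfd (chromosome 10, 79890853 to 79892655) was at 60.5, 66.2 and 42.3 against 93.7, 92.5 and 38.5 CPM and Lpl (chromosome 8, 68880491 to 68907448), the lipase of blood lipids, at 138, 118 and 73.2 against 110.5, 165 and 117 CPM.

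Vessel and blood cell markers had medians near 0. Endothelial and mural markers had 7 of 14 positive (median -0.079), macrophage markers 6 of 15 (median -0.064), markers of neutrophils, mast cells and lymphocytes 6 of 15 (median -0.041) and erythroid markers 4 of 8 (median -0.047). Mrc1 (chromosome 2, 14229392 to 14332057), the mannose receptor of macrophages, was at 140.2, 218 and 140.4 CPM with Kif5A and 199, 334 and 249.6 CPM with IgG. Mmp9 (chromosome 2, 164940780 to 164955850), a protease of neutrophils, was at 31.1, 32.9 and 27.9 against 56.6, 92.8 and 43.2 CPM, without overlap. Skeletal muscle markers had 5 of 8 tested positive (median 0.76), which became -0.48 without the filter on low counts. Of these, Actn3 (chromosome 19, 4861216 to 4877909), an actinin of fast fibres, was at 2.83, 3.49 and 2.20 CPM with Kif5A, a ratio of 126 (95% interval 22.2 to 5002) over 1 IgG count.

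Genes of the axonal cytoskeleton lay above IgG more often than below, and their median changed sign in only 1 alternative setting. Of 36 genes, 25 were positive, and the median log2 ratio was 0.30. That median was -0.067 when Kif5A replicate 3 alone was left out. Replicate 3 had the highest summed level in both groups (13831 CPM for Kif5A, 12051 for IgG), so leaving it out of 1 group unbalances the comparison. Tubb4a (chromosome 17, 57080066 to 57087782), a beta tubulin of neurons and oligodendrocytes, was at 291, 308 and 348 CPM with Kif5A and 168, 189 and 211 CPM with IgG, without overlap (log2 ratio 0.80, SE 0.24, adjusted p = 0.480). Its input level was 329.9 ± 41.9 CPM. Map6 (chromosome 7, 99267447 to 99337137), which stabilises microtubules, was at 13.98, 14.02 and 7.02 CPM with Kif5A, 2.21, 3.65 and 2.67 with IgG and 6.97 ± 1.84 in input (log2 ratio 2.09, SE 0.75). Tuba4a (chromosome 1, 75214228 to 75219865), an alpha tubulin, was at 67.6, 116 and 93.6 against 79.5, 48.4 and 61.4 CPM and overlapped. Tubulin genes resemble one another, so their single values are uncertain to the extent that reads were shared among copies.

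The mRNAs of RNA-binding proteins of transport granules were below IgG more often than above. Of 36 genes, 14 were positive, and their median was -0.12, and 3 were below and 0 above IgG at an unadjusted p under 0.05, beside 1.94% below and 3.94% above over all genes tested. Their summed level was 7502, 7429 and 6259 CPM with Kif5A and 9378, 10023 and 7894 CPM with IgG, without overlap of the groups. Hnrnpa2b1 (chromosome 6, 51460932 to 51469894), which binds mRNAs for transport along microtubules, was at 371, 384 and 456 CPM with Kif5A, 954, 677 and 629 with IgG and 599 ± 107 in input (log2 ratio -0.84, SE 0.26, adjusted p = 0.505). Hnrnpu (chromosome 1, 178321108 to 178337797), a nuclear RNA-binding protein also found in granules, was at 299.7, 283 and 313 against 552, 514 and 399 CPM (log2 ratio -0.65, SE 0.24). Of the mRNAs studied in sensory axons, 15 of 26 were positive, and their median was 0.075. Of this list, Pdia3 (chromosome 2, 121413775 to 121438687), a chaperone of the endoplasmic reticulum, was lower in every Kif5A library, at 319, 362 and 335 against 575, 580.3 and 439 CPM. Ctnnb1 (chromosome 9, 120929216 to 120960507), beta-catenin, was at 0.943, 1.45 and 1.13 against 4.36, 13.0 and 0.475 CPM.

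**Figure D4:**
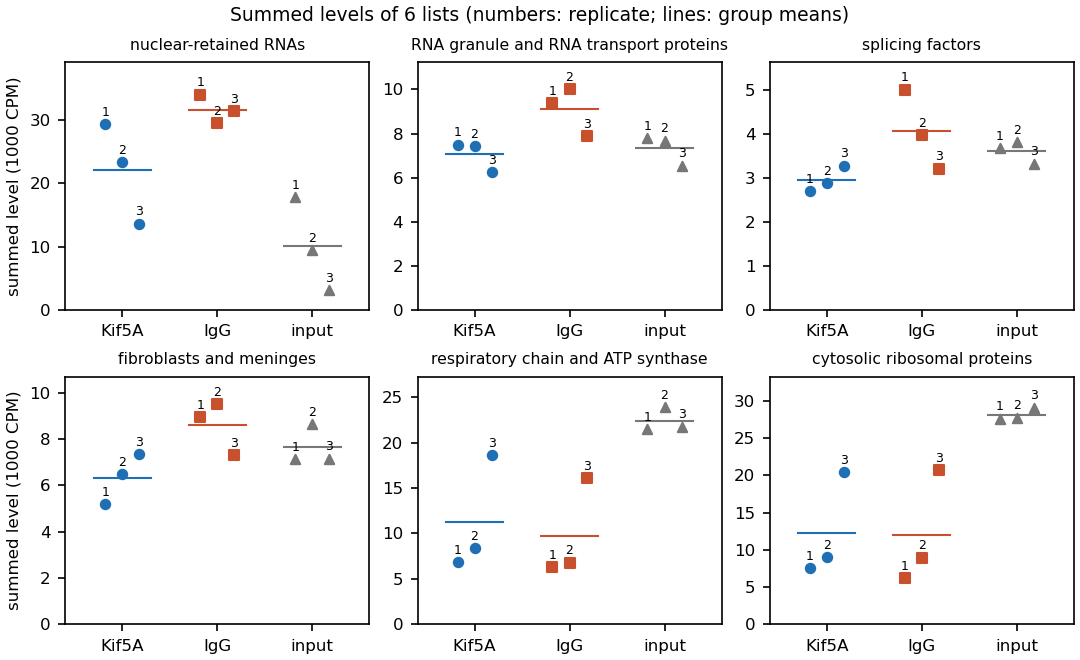
Summed levels (y axis, in 1000 CPM) of the genes of 6 lists (panels) in the 3 Kif5A, 3 IgG and 3 input libraries, 1 point a library labelled by its replicate, with group means as lines. Ribosomal protein and respiratory chain sums in replicate 3 are above those of replicates 1 and 2 in both the Kif5A and the IgG group.

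The genes of ribosomes and mitochondria differed more between libraries of 1 antibody than between the antibodies, as the plot of summed levels shows. Cytosolic ribosomal proteins summed to 7535, 8963 and 20439.6 CPM with Kif5A, 6192, 8919.6 and 20729 CPM with IgG, beside 27586 to 29102 CPM in input. Replicate 3 of each antibody was more than 2 times replicate 1 and still under every input. Of the 84 genes, 43 were positive (median 0.0050), and without Kif5A replicate 3 the median was -0.63. Genes of the respiratory chain and ATP synthase summed to 6799.5, 8389.6 and 18665 CPM with Kif5A, 6287, 6798 and 16120.5 CPM with IgG, beside 21518 to 23942 CPM in input. Of 79, 58 were positive (median 0.23), and the median was -0.42 without Kif5A replicate 3 and -0.0017 without IgG replicate 1. Mitochondrial ribosomal proteins had 46 of 73 positive (median 0.11, and -0.23 without Kif5A replicate 3). Transcripts of the mitochondrial chromosome were not analysed here.

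Single members went both ways. Ndufb8 (chromosome 19, 44548572 to 44555440), a subunit of complex I, was at 94.9, 93.1 and 119 CPM with Kif5A and 46.4, 64.2 and 63.7 CPM with IgG (log2 ratio 0.88, SE 0.31, adjusted p = 0.651). Cox6c (chromosome 15, 35925886 to 35938246), a subunit of cytochrome c oxidase, was at 34.8, 26.7 and 50.0 against 87.6, 72.9 and 54.0 CPM and Atp5sl (chromosome 7, 25619414 to 25625551) at 7.66, 6.17 and 4.18 against 32.4, 8.01 and 14.6 CPM. None of these 3 overlapped between the groups, and only Ndufb8 was higher. Of the ribosomal genes, Rpl22 (chromosome 4, 152325742 to 152334071) was at 169.6, 155 and 226 against 135, 68.7 and 154 CPM, Rps27a (chromosome 11, 29545846 to 29548109) at 10.0, 15.2 and 20.3 against 35.4, 46.1 and 16.3 CPM and Rpl10a (chromosome 17, 28328471 to 28331033) at 19.3, 18.4 and 14.5 against 42.1, 60.2 and 10.4 CPM. Ribosomal protein genes have many near copies in the genome, so these single values are uncertain. Of the mitochondrial ribosome, Mrpl22 (chromosome 11, 58171661 to 58179565) was at 27.7, 24.8 and 52.5 against 9.46, 18.7 and 24.4 CPM, Mrpl42 (chromosome 10, 95480805 to 95501940) at 361, 443 and 578 against 503, 577 and 997 CPM and Mrps10 (chromosome 17, 47368887 to 47381417) at 4.83, 6.28 and 3.32 against 6.91, 14.5 and 11.0 CPM.

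The machinery of translation was split as well. Of 60 translation factors, 29 were positive (median -0.043). Eif4h (chromosome 5, 134619721 to 134639490), which aids the unwinding of mRNA at initiation, was at 484, 475 and 685 CPM with Kif5A, 294, 240.3 and 359 with IgG and 327 ± 172 in input, without overlap of the precipitates (log2 ratio 0.94, SE 0.28, adjusted p = 0.458). Eif5b (chromosome 1, 37998010 to 38055579), which joins the ribosomal subunits, lay the other way, at 216, 304 and 214 against 578, 496 and 322 CPM (log2 ratio -0.87, SE 0.30). Eif4g1 (chromosome 16, 20668313 to 20692884), the scaffold of the cap-binding complex, was counted at 3.94, 1.34 and 2.20 CPM with Kif5A and with 1 count in the IgG libraries, a ratio of 112 (95% interval 19.7 to 4446). Its input level was 0.380 ± 0.384 CPM. Only 1 transcript of Eif4g1 is listed, so the ratio is that of this transcript and not of the whole mRNA. Aminoacyl-tRNA synthetases had 12 of 29 positive (median -0.26). Hars2 (chromosome 18, 36783008 to 36792562), the mitochondrial histidyl-tRNA synthetase, was lower in every Kif5A library, at 12.3, 18.6 and 6.38 CPM with Kif5A, 90.9, 76.7 and 28.4 with IgG and 16.0 ± 2.65 in input (log2 ratio -2.34, SE 0.61, adjusted p = 0.328). Cars (chromosome 7, 143557230 to 143600090) and Rars2 (chromosome 4, 34614957 to 34660167), synthetases for cysteine and, in mitochondria, arginine, lay the other way at low level. Cars was at 1.89, 2.68 and 0.696 against 0.336, 0 and 0 CPM and Rars2 at 2.11, 1.75 and 1.50 against 0.872, 0.156 and 0.238 CPM, both without overlap. The summed level of these synthetases was set in replicate 3 by Lars2, at 359.6, 369 and 7318 CPM with Kif5A and 159, 319 and 3309 CPM with IgG, a gene named here after its values were seen. Lars2 is known to share sequence with ribosomal RNA, and its counts are uncertain to that extent. Proteasome subunits had 23 of 41 positive (median 0.051), with Psma3 (chromosome 12, 70974621 to 70996347) at 37.8, 43.1 and 46.0 against 97.6, 59.9 and 59.2 CPM and Psmb5 (chromosome 14, 54614119 to 54618022) at 89.8, 105 and 222 against 61.8, 38.3 and 106 CPM.

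Nuclear-retained RNAs and splicing factors had more members below IgG than above. Of the 8 nuclear-retained RNAs, 1 was positive, and the median log2 ratio was -1.005, and 2 were lower at an unadjusted p under 0.05, as were 1.94% of all genes tested. Without IgG replicate 1 that median was -0.40. Their sum was 29313, 23389 and 13618 CPM with Kif5A, 34039, 29526 and 31456 CPM with IgG, beside 17812, 9415 and 3123 CPM in input. With the TMM factors used for these CPM values the precipitates did not overlap, but Kif5A replicate 1 lay just under IgG replicate 2. The factors of the main fit (1.059 and 1.056, in place of 1.171 and 1.110) put these libraries in the other order. The lack of overlap thus depends on the scaling. Every IgG library lay above every input, while Kif5A replicate 3 lay within the range of the inputs. Most of this sum was Malat1, at 28208, 22666 and 13387 CPM with Kif5A and 31237, 28098 and 31062 CPM with IgG, which was named after its values were seen. Gas5 (chromosome 1, 161034422 to 161038539), a host RNA of small nucleolar RNAs, was at 31.9, 32.9 and 39.4 CPM with Kif5A, 92.7, 76.3 and 59.2 with IgG and 67.6 ± 13.7 in input (log2 ratio -1.07, SE 0.35, adjusted p = 0.564). Firre (chromosome X, 50555744 to 50635321) was at 17.8, 8.61 and 7.55 against 91.9, 50.6 and 7.78 CPM, with IgG replicate 3 among the Kif5A values, and Rian (chromosome 12, 109603940 to 109661716) at 24.2, 13.6 and 13.0 against 45.2, 40.6 and 18.4 CPM.

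Of 46 splicing factors, 16 were positive (median -0.20), with 3 lower and 0 higher at an unadjusted p under 0.05, beside 1.94% lower and 3.94% higher over all genes tested. The median was -0.38 without Kif5A replicate 3 and -0.10 without replicate 1 of both groups. Their sum was 2707, 2884 and 3286 CPM with Kif5A and 5011, 3978 and 3217 CPM with IgG, where IgG replicate 3 lay within the Kif5A range. Prpf4b (chromosome 13, 34875302 to 34906064), a kinase of the spliceosome, was at 98.4, 104 and 110.5 CPM with Kif5A, 316, 197 and 168 with IgG and 98.5 ± 11.6 in input (log2 ratio -1.06, SE 0.31, adjusted p = 0.454). Sf3a1 (chromosome 11, 4160350 to 4182541), a subunit of the U2 particle, was at 73.5, 59.7 and 73.2 against 138, 94.9 and 156 CPM, and Prpf39 (chromosome 12, 65036333 to 65063386) at 13.6, 15.0 and 3.43 against 62.1, 43.7 and 14.1 CPM. Genes of nuclear transport had 18 of 39 positive (median -0.031), with Nup205 (chromosome 6, 35177421 to 35247596), a scaffold of the nuclear pore, at 6.71, 16.2 and 10.9 against 4.23, 4.12 and 5.17 CPM and Ipo11 (chromosome 13, 106794439 to 106936958) at 80.0, 65.3 and 35.6 against 104, 141 and 69.7 CPM. In the authors' deposited table transcripts of Sf3a1 (log2 ratios 3.40 and -0.88) and of Ipo11 (3.66 and -0.82) went both ways. Their false discovery rates there were 0.087 to 0.17.

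Lists of membrane and traffic proteins held members above IgG at an unadjusted p under 0.05, most of them at low level, where 3.94% of all genes tested were above IgG at that p. Of 56 voltage-gated ion channels tested, 31 were positive (median 0.16), 5 were higher at an unadjusted p under 0.05 and 12 were above IgG without overlap, as were 7.96% of all genes tested. Of the 67 in the table, 32 had a 0 in an IgG library and 7 in a Kif5A library, beside 3408 and 790 of the 14779 genes. Scn4b (chromosome 9, 45138395 to 45154152), the beta-4 subunit of sodium channels, was at 11.8, 15.8 and 28.2 CPM with Kif5A, 2.28, 0.233 and 5.17 with IgG and 11.5 ± 4.95 in input (log2 ratio 2.91, SE 1.08, adjusted p = 0.731). Kcnc4 (chromosome 3, 107438303 to 107459552), a potassium channel, was at 4.83, 0.873 and 7.93 against 0, 0 and 0.238 CPM. Cacng3 (chromosome 7, 122670492 to 122769393), which also serves glutamate receptors, was at 6.44, 2.91 and 3.11 CPM with Kif5A and at 0 with IgG, at least 61.8-fold.

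Rab GTPases, the switches of vesicle traffic, had 32 of 53 positive (median 0.14). At an unadjusted p under 0.05, 4 were above and 0 below IgG, beside 3.94% and 1.94% over all genes tested. Rab6b (chromosome 9, 103111787 to 103185276), the neuronal form of a Golgi Rab, was at 284, 235 and 292 CPM with Kif5A, 199, 158 and 188 with IgG and 201 ± 68.4 in input, without overlap of the precipitates (log2 ratio 0.64, SE 0.25, adjusted p = 0.790). Rab37 (chromosome 11, 115091431 to 115162236) was at 2.22, 1.69 and 1.39 CPM and Rab40c (chromosome 17, 25882114 to 25919727) at 1.44, 0.582 and 1.93 CPM with Kif5A, and both were at 0 with IgG, at least 26.2-fold and 19.9-fold lower than with Kif5A. Synaptic vesicle and SNARE genes had 29 of 49 positive (median 0.19, and -0.092 without IgG replicate 1). Their summed level went against that median, at 4200.4, 4246 and 4254 CPM with Kif5A and 4323, 4348 and 4986 CPM with IgG. Stx4a (chromosome 7, 127824294 to 127849019), a syntaxin of the plasma membrane, was at 29.8, 26.9 and 15.9 against 106, 68.4 and 37.8 CPM, and Scg3 (chromosome 9, 75643189 to 75684056), a protein of dense-core vesicles, at 17.4, 24.1 and 31.7 against 45.5, 68.3 and 65.9 CPM. Both were lower in every Kif5A library, while Syt15 (chromosome 14, 34219595 to 34230420), a synaptotagmin, was at 1.83, 2.09 and 0.911 CPM with Kif5A and at 0 with IgG, at least 23.7-fold higher.

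Protocadherins had 13 of 23 tested positive (median 0.16), with 4 above and 0 below IgG at an unadjusted p under 0.05. Over all genes tested, 3.94% were above and 1.94% below at that p. Of the 29 protocadherins in the table, 19 had a 0 in an IgG library, as had 3408 of the 14779 genes. Besides Pcdhb16, Pcdhb12 (chromosome 18, 37435621 to 37438654) was at 4.83, 5.64 and 2.30 against 0.268, 0 and 0.0594 CPM, and Pcdhga11 (chromosome 18, 37755731 to 37841873) was at 1.78, 2.09 and 1.50 CPM with Kif5A and at 0 with IgG, at least 26.5-fold higher. Clustered protocadherins share exons or close sequence, so single members are uncertain. Zinc finger genes had 94 of 252 positive and a median of -0.19. At an unadjusted p under 0.05, 13 were above and 7 below IgG, beside 3.94% and 1.94% over all genes tested. Zfp648 (chromosome 1, 154201187 to 154205689) was at 3.44, 3.96 and 3.16 CPM with Kif5A, a ratio of 156 (95% interval 27.7 to 6212) over 1 IgG count. Ubiquitin ligase adaptors and cullin regulators, which include Cand2 and Enc1, had 37 of 84 positive (median -0.079). At an unadjusted p under 0.05, 7 were above and 2 below IgG, beside the same shares over all genes. Klhl35 (chromosome 7, 99466004 to 99474022) was at 0.943, 4.54 and 2.63 CPM with Kif5A and at 0 with IgG, at least 39.7-fold higher.

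In the mTOR pathway 16 of 30 genes were positive (median 0.015). Akt1 (chromosome 12, 112653821 to 112674884), a kinase upstream of mTOR, was at 194, 201 and 193 CPM with Kif5A, 114, 94.5 and 139 with IgG and 127 ± 31.5 in input, without overlap of the precipitates (log2 ratio 0.82, SE 0.27, adjusted p = 0.550). Akt2 (chromosome 7, 27591552 to 27640826) was at 3.33, 12.2 and 10.9 against 0.805, 5.99 and 0.831 CPM and Rheb (chromosome 5, 24802823 to 24842624), the GTPase that switches mTOR on, at 198, 224 and 313 against 195, 130.3 and 224 CPM. Cholesterol synthesis had 12 of 20 positive (median 0.012). Immediate early and heat shock genes had 9 of 17 positive (median 0.019), with Fos (chromosome 12, 85473890 to 85477273) at 29.1, 27.5 and 23.1 against 19.2, 5.21 and 15.4 CPM and Hspa8 (chromosome 9, 40800984 to 40810087), a constitutive chaperone, at 12.4, 20.8 and 13.7 against 25.03, 34.7 and 24.4 CPM.

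At the level of single transcripts the result was the same. Of 17366 transcripts tested, 0 passed in either direction (0.0%), with a smallest adjusted p of 0.179. In 1400 (8.06%) the Kif5A libraries lay wholly above IgG and in 966 (5.56%) wholly below. At an unadjusted p under 0.05, 775 (4.46%) were higher and 273 (1.57%) lower. DESeq2 called 627 transcripts, 505 of them higher, and limma-voom 0. 63.2% of the 775 had a 0 in an IgG library, against 21.5% of those tested. The transcript of smallest p was Arhgef19-201, of a gene for an exchange factor of small GTPases, at 8.32, 16.3 and 16.3 CPM with Kif5A and with 2 counts in the IgG libraries, a ratio of 305 (95% interval 84.0 to 2520.2). Ppp1r2-202, of an inhibitor of protein phosphatase 1, was at 7.27, 7.39 and 8.95 CPM with Kif5A and 0.134, 0.0778 and 0.238 CPM with IgG. Their false discovery rates in the authors' deposited table were 4.44e-06 and 0.000223, and the smallest rate there, 4.01e-07, was that of Enc1-201.

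Transcripts lower with Kif5A included forms other than the main one of abundant genes. Gng5-202, of a G protein gamma subunit, was at 11.4, 11.6 and 14.6 CPM with Kif5A and 77.2, 102 and 35.8 CPM with IgG (log2 ratio -2.40). Cst3-203, a noncoding form of the gene of cystatin C, was at 4.38, 2.85 and 4.02 against 48.7, 24.5 and 16.4 CPM, and Polr3f-204, a noncoding form of a subunit of RNA polymerase III, at 0.166, 0.233 and 0.0536 against 25.4, 13.5 and 1.31 CPM. That none of these 3 overlapped between the groups was a condition of their choice, met in this direction by 5.56% of all transcripts tested. Among the transcripts not listed for sciatic nerve, those of smallest p were Gabrg3-202, Neu4-201, Rtn2-201 and Pdyn-201, which carry the gene values above, and Kirrel3-201 and Pisd-ps2-201. Kirrel3-201, of an adhesion protein of synapses, was at 4.16, 6.34 and 5.68 CPM with Kif5A, a ratio of 240.1 (95% interval 42.7 to 9514) over 1 IgG count. Pisd-ps2-201, of a pseudogene, was at 6.33, 3.43 and 6.48 CPM with Kif5A and at 0 with IgG, at least 81.1-fold higher.

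Sorted by transcript type, fewer of the forms that keep an intron than of the coding forms had a positive log2 ratio. Of 2081 retained-intron transcripts, 36.1% had a positive log2 ratio (median -0.46), against 54.9% of 12529 coding transcripts (median 0.075) and 50.8% of all. At an unadjusted p under 0.05 the count went the other way, with 90 retained-intron transcripts (4.32%) higher and 46 (2.21%) lower, beside 4.46% and 1.57% over all transcripts. Transcripts marked for nonsense-mediated decay had 39.3% positive (median -0.24), other processed transcripts 40.4% (median -0.22), long intergenic RNAs 41.9% (median -0.27) and antisense RNAs 43.6% (median -0.14). Retained-intron transcripts took 1.21, 1.03 and 0.738% of the counts with Kif5A, 2.19, 1.57 and 0.805% with IgG and 0.925, 0.743 and 0.620% in input. The difference of the means was -0.53 percentage points, and -0.20 without IgG replicate 1. The groups overlapped by IgG replicate 3, and the exact two-sided permutation test, which ignores the replicate numbers, gave p = 0.3. The share fell from replicate 1 to replicate 3 with Kif5A, with IgG and in input. At each replicate number IgG lay above Kif5A, but whether the numbers pair the libraries was not settled. Within 1124 genes that have both types, the retained form had the lower log2 ratio in 723 (64.3%), with a median difference of -0.41. The per-library median of the log2 retained over coding counts did not follow this, at -2.21, -2.33 and -2.66 with Kif5A and -2.01, -2.36 and -2.72 with IgG (exact two-sided permutation p = 1.0). Across 13076 genes, which are not independent replicates, the log2 ratio had a Spearman correlation of 0.12 with the gene's GC content and of -0.018 with its length.

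**Figure D5:**
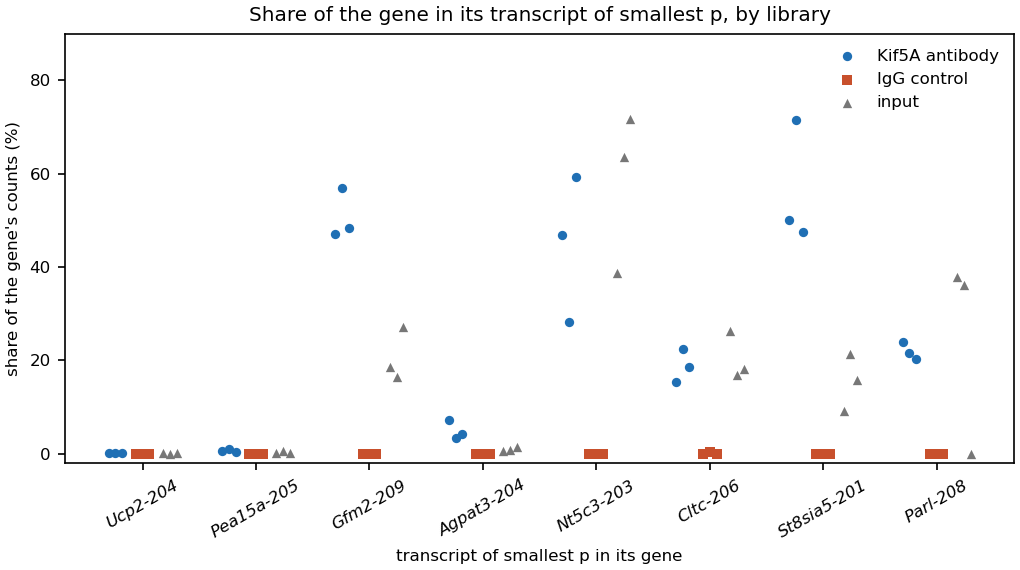
Percent of a gene's counts assigned to 1 of its transcripts (y axis) in each of the 3 Kif5A, 3 IgG and 3 input libraries, 1 point a library. The 8 genes are those of smallest p in the transcript usage test, each shown by its transcript of smallest p for Kif5A against IgG. The transcript is at 0% in at least 2 of the 3 IgG libraries in each of the 8 genes, and above 0% in every Kif5A library. That choice used these same libraries, so the pattern describes the choice and is not a separate result.

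Transcript usage, the split of a gene's counts among its transcripts, had calls by edgeR, which called no gene or transcript by level. Of 2836 genes with at least 2 tested transcripts, 56 (1.97%) differed between Kif5A and IgG at an adjusted p under 0.05 (edgeR's gene-level usage test), and 248 (8.74%) had an unadjusted p under 0.05. In 38 of the 56 a tested transcript was at 0 in all 3 IgG libraries, as in 67 of the 2836, and in 0 of them one was at 0 in all 3 Kif5A libraries. The count depended on single libraries: leaving out any 1 Kif5A library gave 0 genes, and leaving out IgG replicate 1, 2 or 3 gave 167, 199 and 301. A stricter filter on low counts, and a quasi-likelihood fit adjusted for small counts, gave 0 each.

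In 5 of the 8 genes of smallest p, a transcript at 0 in at least 2 of the 3 IgG libraries made up a large part of the gene's counts with Kif5A. For each gene the transcript of smallest p is described, a choice made on these same libraries. Nt5c3 encodes a nucleotidase, and its transcript Nt5c3-203 keeps an intron. The junction is shown because it marks this form. The capitals are the last 30 bases of the kept intron, which no other GENCODE transcript of the gene holds, and the lower case is the exon that follows. It lies on GRCm38 at chr6:56889480-56889539, on the minus strand (GENCODE M21).
Nt5c3-203: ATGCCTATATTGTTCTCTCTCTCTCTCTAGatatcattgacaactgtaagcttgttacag
Nt5c3-203 had 38, 13 and 29 counts in the Kif5A libraries, 0 in each IgG library, and 46.9, 28.3 and 59.2% of the gene's counts with Kif5A and 38.8, 63.6 and 71.8% in input (usage adjusted p = 0.0134). With Kif5A it was at least 22.1-fold higher. The shares with Kif5A and in input thus overlapped, and the form had none of the gene's counts with IgG. The input shares rest on few counts, 19, 7 and 28 of this form. Nt5c3-202 had 19, 3 and 3 counts in input and Nt5c3-201 had 11, 1 and 8. Of the 31-base words of Nt5c3-203, 64.8% are in no other transcript of the gene.

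Gfm2 encodes a mitochondrial factor that recycles ribosomes. Gfm2-209 held 41, 61 and 86 counts in the Kif5A libraries and 0 in each IgG library, or 47.1, 57.0 and 48.3% of the gene's counts with Kif5A and 18.6, 16.4 and 27.1% in input (usage adjusted p = 0.0113). St8sia5, a sialyltransferase of gangliosides in brain, had 54, 90 and 89 counts of St8sia5-201 with Kif5A and 0 with IgG, or 50.0, 71.4 and 47.6% with Kif5A and 9.20, 21.4 and 15.7% in input (usage adjusted p = 0.0142). Cltc, the clathrin heavy chain, had 46, 81 and 85 counts of Cltc-206 with Kif5A and 0, 1 and 0 with IgG, which is 15.3, 22.3 and 18.5% with Kif5A and 26.2, 16.8 and 18.04% in input (usage adjusted p = 0.0134). Parl, a protease of the inner mitochondrial membrane, had 27, 19 and 15 counts of Parl-208 with Kif5A and 0 with IgG, or 23.9, 21.6 and 20.3% with Kif5A and 37.8, 36.1 and 0% in input (usage adjusted p = 0.0150). Nt5c3-203 and Cltc-206 keep an intron.

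In the other 3 genes the form was minor. Agpat3-204, of an acyltransferase of phospholipid synthesis, made up 7.21, 3.32 and 4.17% with Kif5A, Pea15a-205, of an adaptor of ERK signalling, 0.510, 0.911 and 0.261% and Ucp2-204, of a mitochondrial carrier, 0.144, 0.178 and 0.0815%. Each had 0 counts in every IgG library and an adjusted p of 0.0113. Only 4.07% of the 31-base words of Ucp2-204 and 10.2% of those of Agpat3-204 are in no other transcript of the gene, so the counts of these forms rest on few positions or on how the authors shared reads among transcripts, a step the sources used here do not give. For Gfm2-209, Cltc-206 and St8sia5-201 the share was 49.4%, 78.4% and 53.6%. It was 13.8% for Parl-208, which is uncertain to the same extent.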

How the data were processed

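RNA of the dorsal root precipitates and inputs was made into libraries with SMART-Seq v4, which amplifies full-length cDNA by PCR. The authors deposited raw read counts per Ensembl transcript. The submitters' processing notes name the build mm10 (GRCm38), CASAVA 1.8.2 and edgeR. Not given in the sources used here are the aligner, the counter, the annotation release, the use of strand and how reads were shared among transcripts, so overlapping and antisense genes and near copies cannot be told apart. The authors' normalized counts, a signal per library per the file headers, were not used. The authors' deposited log2 ratios, their p-values and their false discovery rates are quoted only where named as theirs. Another 33 columns of per-sample values were not used. The 283 rows without a gene name held 0.186 to 0.237% of a library's counts and were left out.

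Counts were added up per gene name and tested in R 4.3.3 with edgeR 4.0.16 (TMM scaling, default filter by group, robust quasi-likelihood fit over the 6 precipitates, two-sided, Benjamini-Hochberg adjustment over all features tested, threshold 0.05). Transcript usage was tested with edgeR's diffSpliceDGE at the gene level. DESeq2 1.42.0 and limma-voom (limma 3.58.1), other scalings and filters, and left-out libraries were alternatives. The fits were checked on simulated counts, where recovery of known fold changes was required only at a spread below that of these data. That check does not bear on how many changes the test misses here. Standard errors are those of edgeR's fit. CPM values use TMM factors over the 9 dorsal root libraries. Of the 13124 genes tested, 13076 were found in GENCODE M21, through their transcripts.

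Genes named always were the kinesin-1 chains, Ncl, Kpnb1 and Mtor, 9 in all. Of these Klc2 was not analysed here. Since no gene passed the threshold, 14 higher and 10 lower genes followed by smallest p, among genes without overlap between the groups whose higher group averaged 2 CPM or more, and 3 members of each of 35 lists by smallest p. Not every list member so chosen is given in the text, and some are not reported here. Predicted genes were passed over, 1 in each direction. Transcripts were the 8 higher and 5 lower of smallest p, 6 not in the sciatic nerve table, and 8 genes of the usage test. The members and lists were chosen with earlier results of these data known. The 3 repeats are pools, and p-values measure the spread between these pools.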

Additional observations from a re-analysis of the deposited data

How the results depend on the processing

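At an adjusted p under 0.05 every edgeR and limma-voom setting run gave 0 genes and 0 transcripts, and DESeq2 gave 283 genes and 627 transcripts. The number of genes with different transcript usage, 56, was 183 without a filter on low counts, 0 with a stricter one, 292 with all 9 dorsal root libraries in 1 fit, and 0 to 301 with libraries left out. Alternatives chosen after seeing the data gave 12 by Simes combination, 0 with a quasi-likelihood fit adjusted for small counts, and 1 without transcripts at 0 in an IgG library. The cause of these differences was not tested, except that fewer transcripts enter with a stricter filter and without IgG zeros. With libraries left out, genes at an unadjusted p under 0.05 numbered 408 to 1379 higher and 83 to 706 lower.

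Whether the replicate numbers pair the libraries was not settled, because the labels do not say so and the values were mixed. Deviations of Kif5A and IgG libraries of the same number correlated at r = 0.110, 0.059 and 0.254 over genes. Those of different numbers correlated at -0.19 to 0.075, and IgG replicate 2 correlated best with Kif5A replicate 1. Summed levels of cytosolic ribosomal proteins rose from replicate 1 to replicate 3 in both groups. With the replicate number as a block, 0 genes, 0 transcripts and 0 usage genes passed. The block moved the median log2 ratio of all genes from -0.0088 to 0.20.

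Log2 ratios that turned direction were small or rested on 1 library. Kif5b (0.0047) was -0.040 with DESeq2 size factors, -0.044 with DESeq2, -0.056 with all 9 libraries, -0.0087 without IgG zeros and -0.0038 over transcripts shared with sciatic nerve. Klc1 (0.053) was -0.0084, -0.018 and -0.0087 with the first 3 of these. With 1 library left out the range was -0.13 to 0.19 for Kif5b, -0.31 to 1.00 for Klc1, -0.86 to 0.52 for Klc4 (highest without IgG replicate 1), -0.22 to 0.16 for Kpnb1, -0.90 to 0.057 for Prx (highest without IgG replicate 1), -3.41 to 0.61 for Tpsb2 (highest without IgG replicate 3) and -0.40 to 0.027 for Lpl. With a replicate number left out of both groups, Kif5b was -0.19 and -0.055 (numbers 1 and 2), Klc1 -0.33 and -0.18 (2 and 3), Klc4 0.35 and Prx 0.021 (1), and Kpnb1 0.10 (3). At 2 to 5 CPM in input a gene had a median of 27 to 37.5 counts in an IgG library and 54 to 58 in a Kif5A library, and the part of depth in the calls was not tested.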
